A study of Mus musculus with 6 samples.

Results

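The bone morphogenetic protein (BMP) genes described here are 4 ligands (Bmp2, Bmp4, Bmp5 and Bmp6), 3 receptors (Bmpr1a, Bmpr1b and Bmpr2) and 3 regulators that act on the ligands (Crim1, Grem1 and Bmper). They were taken by gene symbol, and all 10 were found, with 1 probe set each, among 19505 named genes on the array. Whole adrenal glands of 6 female mice aged 2 months were measured, with 1 Affymetrix whole-transcript array per animal. The 3 control animals were Mst1flox/flox;Mst2flox/flox and carried no Cre. The 3 mutant animals were Mst1flox/flox;Mst2flox/flox;Nr5a1-cre, so both groups shared the floxed alleles of the Hippo pathway kinases MST1 and MST2. Nr5a1-Cre acts in steroid-producing cells, and whole glands also hold the capsule, vessels, medulla and other cells. In which cells of these glands the deletion took place was not measured here. An effect of the Cre transgene itself cannot be told apart from that of the deletion, since no control carried it.

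BMPs are secreted dimers of the TGF-beta superfamily. They bind pairs of type I and type II receptor kinases, which phosphorylate SMAD1, SMAD5 and SMAD9, and these enter the nucleus with SMAD4 to switch on genes such as the Id family. Secreted and membrane-bound proteins that hold the ligands set how much reaches the receptors. In the adrenal, BMPs have been studied as local regulators of steroid output by cortical cells.

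Levels are given as log2 signals, so a difference of 1 unit is a doubling of signal, and levels of different probe sets are not compared. Array medians lay between 6.76 and 6.83, and correlations between arrays over the probe sets ran from 0.9908 to 0.9933 inside a group and from 0.988 to 0.9918 across groups. The 23 background probe sets spanned 2.53 to 7.32, and a gene inside that range was not told apart from background. Stk4, the only targeted kinase gene looked at here, measured 8.32, 8.66 and 8.94 in controls and 8.14, 8.36 and 8.46 in mutants, with overlapping groups (limma adjusted p = 0.623). The position of its probes with respect to the deleted exons is unknown here, so this level does not check the genotypes. The 9 cortex markers had mean signals from 17.55 to 17.75 in the 6 animals, all far above background.

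Crim1 was the member that differed most between the groups, with a signal 1.83-fold higher in mutant than in control glands. Bmp2 was 1.37-fold higher and Bmp5 1.58-fold lower, with no overlap between the 3 mutants and the 3 controls in either gene. The other 7 members overlapped between the groups, the 3 receptors among them. After adjustment over all 22206 probe sets, 0 of the 10 members passed a limma adjusted p of 0.05, where 0.0721 percent of all probe sets did (16, of which 12 were higher and 4 lower). That count of 16 was 1 without any one of the controls and 6 without mutant 2. At an unadjusted p under 0.05 there were 3 members, 2 higher and 1 lower, against 10.4 percent of all probe sets. Groups did not overlap for 3 of 10 members and for 16.4 percent of all probe sets. The median log2 change was 0.16 over the members and -0.01 over all probe sets. Of the 10 members 8 were higher, beside 48 percent of all probe sets. Among those 8, Bmpr1b and Bmper lay inside the background range, and Bmp6, Bmpr1b and Bmpr2 could change sign when 1 animal was left out. Fewer cells of a type and less RNA per cell cannot be told apart in these whole-gland values.

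**Figure D1:**
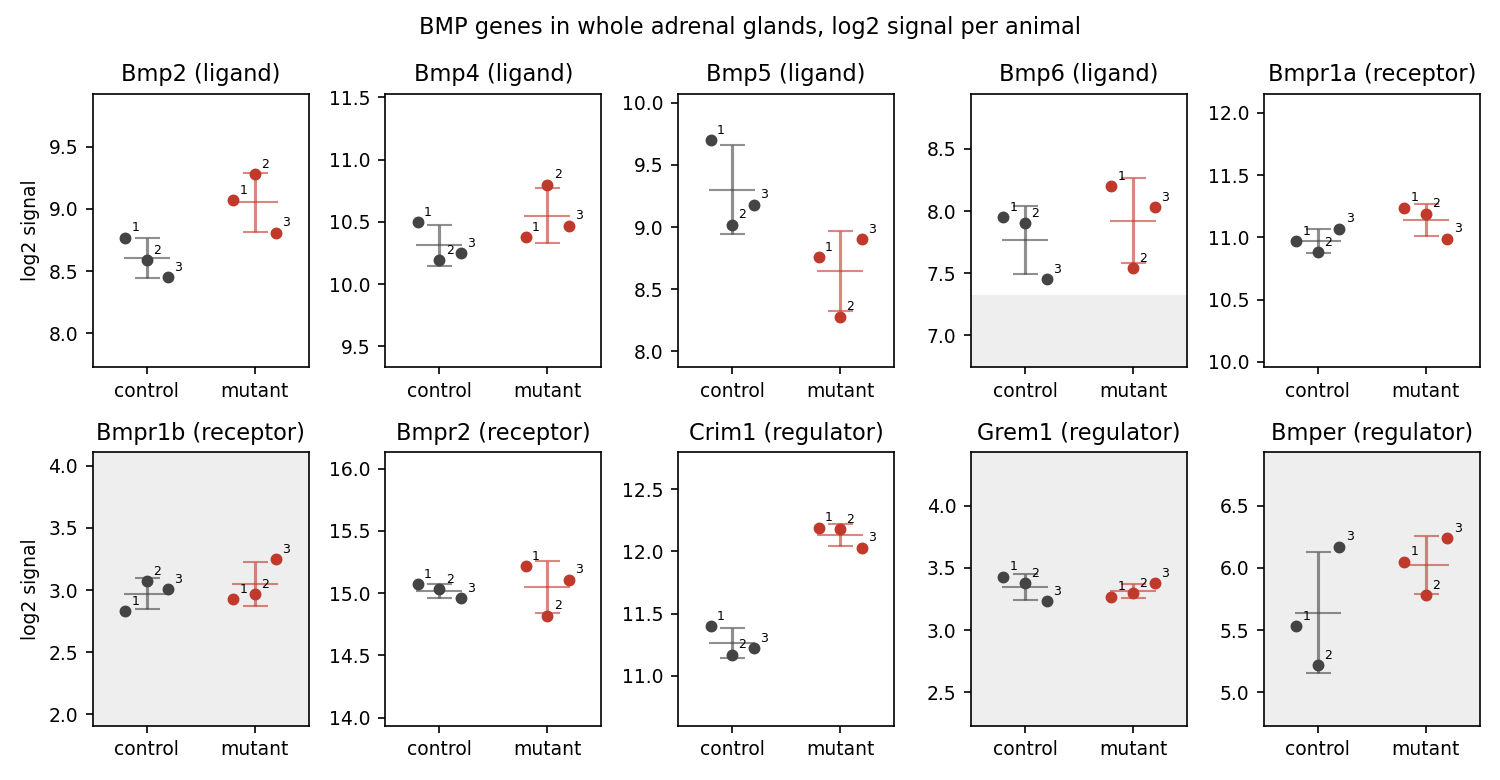
Log2 signal of each BMP gene (vertical axis, the same span of log2 units in every panel) in the 3 control and 3 mutant animals, numbered by replicate, with bars for mean and SD and grey shading for signals at or below 7.32, the highest background probe set. Crim1 shows the widest gap, with mutants from 12.03 to 12.19 and controls from 11.17 to 11.40.

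Among the ligands, Bmp2 and Bmp4 form one subgroup of close relatives, and Bmp5 and Bmp6 belong to another. Bmp2, a ligand first found as an inducer of bone, measured 8.77, 8.59 and 8.45 in controls and 9.07, 9.28 and 8.81 in mutants. All 3 mutants lay above all 3 controls, but the gap between the lowest mutant and the highest control was only 0.04. The log2 change of Bmp2 was 0.45 (SE 0.17, 95% interval 0.05 to 0.85) and did not pass the test (limma adjusted p = 0.425).

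Bmp4, its nearest relative, measured 10.50, 10.19 and 10.25 in controls and 10.38, 10.80 and 10.47 in mutants. Mutant 2 was the highest of the 6 animals for both Bmp2 and Bmp4, and for Bmp4 the other mutants lay among the controls. Bmp4 differed by 0.24 (SE 0.17, 95% interval -0.16 to 0.63), and it did not pass (limma adjusted p = 0.703).

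Bmp5, known from the short ear mouse for its part in skeletal growth, measured 9.70, 9.02 and 9.18 in controls and 8.76, 8.28 and 8.90 in mutants. It was the one ligand with a lower mean in mutants, every mutant lay below every control, and the gap was 0.12. The spread was wide in both groups, with control 1 far above the other controls and mutant 2 far below the other mutants. Its log2 change of -0.66 (SE 0.23, 95% interval -1.19 to -0.12) did not pass the test (limma adjusted p = 0.389), and it lay between -0.80 and -0.46 when any 1 animal was left out.

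Bmp6, the ligand best known for setting iron balance in the liver, measured 7.95, 7.90 and 7.45 in controls and 8.20, 7.54 and 8.03 in mutants. Each group held 1 low animal, control 3 and mutant 2, and the groups overlapped. The change was 0.16 (SE 0.22, 95% interval -0.35 to 0.66, limma adjusted p = 0.856). Side by side, the 95% intervals of Bmp2 and Bmp5 lie on opposite sides of 0 and do not meet, whereas those of Bmp4 and Bmp6 span 0.

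The 3 receptors had a median log2 change of 0.08, against 0.20 for the 4 ligands and 0.39 for the 3 regulators. The receptor and regulator medians are the values of Bmpr1b and Bmper, both inside the background range, so they do not compare the roles. Bmpr2, a type II receptor that binds BMPs, was bright at 15.07, 15.03 and 14.96 in controls and 15.22, 14.82 and 15.11 in mutants. Mutants lay both above and below the controls, and the means differed by 0.03 (SE 0.16, 95% interval -0.33 to 0.39; limma adjusted p = 0.967). Its interval excludes a change of more than 1.31-fold upward.

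Bmpr1a, the broadly expressed type I receptor also called ALK3, measured 10.97, 10.88 and 11.07 in controls and 11.24, 11.19 and 10.99 in mutants. Mutants 1 and 2 were above all controls and mutant 3 was not, which left an overlap of 0.08. The change was 0.17 (SE 0.15, 95% interval -0.17 to 0.50, limma adjusted p = 0.761). Bmpr1b, the type I receptor with narrower expression in cartilage and ovary, lay between 2.83 and 3.25 in all 6 animals, inside the background range, so its change of 0.08 (SE 0.16) says little about the transcript.

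**Figure D2:**
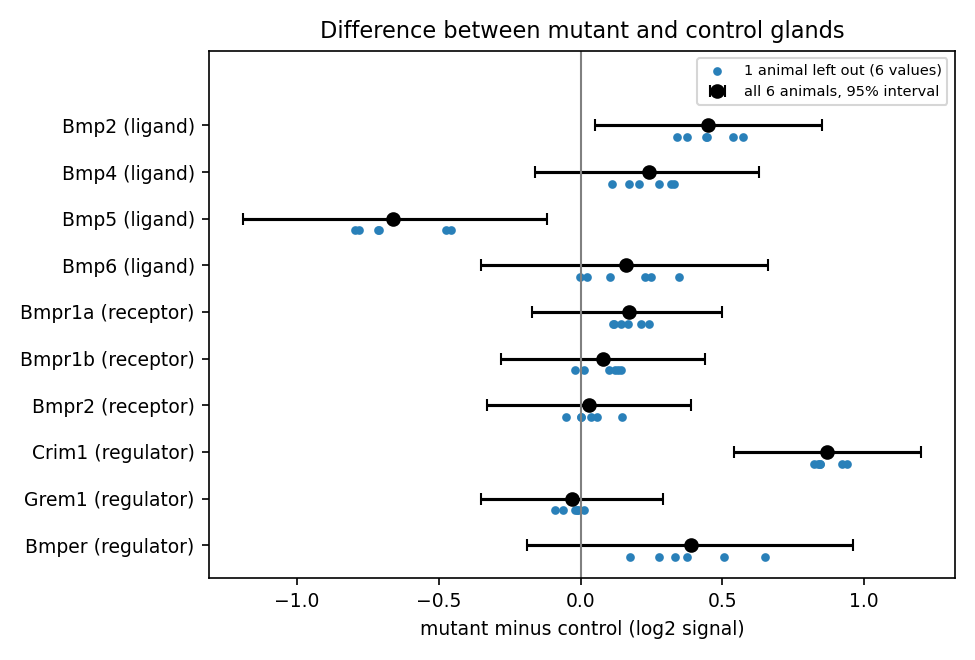
Mutant minus control in log2 signal (horizontal axis) for each BMP gene, with the limma estimate and 95% interval over all 6 animals in black and the 6 estimates with 1 animal left out in blue. The interval of Crim1 runs from 0.54 to 1.20, those of Bmp2 and Bmp5 also exclude 0 before adjustment, and the other 7 span 0.

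Of the regulators, Crim1 carried the largest difference of all members. Crim1 encodes a transmembrane protein with cysteine-rich repeats that binds BMPs inside and at the surface of the cell that makes them, and it is listed in published signatures of YAP targets. It measured 11.40, 11.17 and 11.22 in controls and 12.19, 12.18 and 12.03 in mutants. The lowest mutant was 0.62 log2 units above the highest control, and the pooled SD within groups was 0.11. The log2 change was 0.87 (SE 0.15, 95% interval 0.54 to 1.20), or 1.83-fold (1.45-fold to 2.30-fold). Its unadjusted p of 0.000292 ranked 79 of 22206 probe sets, and 228 probe sets had a larger positive change. Crim1 did not pass the adjusted threshold of 0.05 (limma adjusted p = 0.0803). At an adjusted p under 0.1 Crim1 was the only member among 108 probe sets, 0.486 percent of those tested. It passed 0.05 when dim probe sets were left out (limma adjusted p = 0.0318) and with a variance trend and robust prior (0.0111). With any 1 animal left out the change stayed between 0.82 and 0.94, with limma adjusted p from 0.133 to 0.283.

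The Crim1 promoter is shown because Hippo signalling acts on DNA through YAP, TAZ and the TEAD factors, and this was the one member promoter with the TEAD motif. Promoters of 250 bases before to 50 bases after the start site were read from RefSeq (GRCm38.p6), which held 9 of the 10 members with 11 promoters in all, 8 of those members having 1 each. Bmp2 had no entry. The Crim1 window lies at chr17:78199998-78200297 on the plus strand and the Bmp5 window, shown as that of the lower ligand, at chr9:75775115-75775414 on the plus strand. Both are written 5′ to 3′ with motif matches in capitals.
Crim1: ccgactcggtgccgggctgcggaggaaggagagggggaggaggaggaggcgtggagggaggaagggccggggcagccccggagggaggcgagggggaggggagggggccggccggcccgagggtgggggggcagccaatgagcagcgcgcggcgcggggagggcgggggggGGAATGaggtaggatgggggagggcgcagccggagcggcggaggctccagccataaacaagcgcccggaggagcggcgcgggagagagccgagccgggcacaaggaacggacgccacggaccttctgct
Bmp5: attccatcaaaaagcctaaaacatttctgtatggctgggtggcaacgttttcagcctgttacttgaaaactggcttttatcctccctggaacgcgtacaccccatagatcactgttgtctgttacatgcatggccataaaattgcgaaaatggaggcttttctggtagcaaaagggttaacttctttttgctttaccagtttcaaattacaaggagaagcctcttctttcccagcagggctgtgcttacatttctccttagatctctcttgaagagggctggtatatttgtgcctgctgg
Motifs were searched on both strands, GGAATG for TEAD, which contains the GGAA core of ETS factors, the palindrome GGCGCC for BMP-responsive GC elements, and AAGGTCA for NR5A1, which contains the half-site of other nuclear receptors. In the Crim1 window GGAATG begins 79 bases before the start site on the plus strand, and neither of the other motifs is present. The same 6 letters occur in 14.7 percent of the 32851 promoters in the table. GGCGCC was found in the promoters of Bmpr1a, Bmpr2 and Grem1 and in 11.9 percent of all promoters. AAGGTCA was in 0 of the 11 member promoters and in 4.72 percent of all, and the Bmp5 window holds none of the motifs. The Crim1 window has a GC content of 76.0 percent with 31 CG dinucleotides, and that of Bmp5 43.3 percent with 4, against medians of 52.7 percent and 7 over all promoters. Such matches are letters in a window and not measured binding.

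Grem1, a secreted antagonist that traps BMP2, BMP4 and BMP7, lay between 3.23 and 3.43 in all 6 animals, inside the background range, with a change of -0.03 (SE 0.14, limma adjusted p = 0.964). Bmper, a secreted protein that binds BMPs, also lay inside that range, at 5.53, 5.22 and 6.17 in controls and 6.05, 5.78 and 6.24 in mutants. Control 3 was among the mutants, and the change was 0.39 (SE 0.25, 95% interval -0.19 to 0.96, limma adjusted p = 0.661). Of the 3 regulators, Crim1 was thus the only one with signals above background in these glands.

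Mean signals of several cell type marker lists were also higher in the mutant glands, although limma called 0 markers of any list. Endothelial list means were 10.92 to 11.14 in controls and 11.43 to 11.50 in mutants, with 7 of 7 measured markers higher and Vwf inside the background range. Smooth muscle and pericyte means were 9.35 to 9.62 and 9.85 to 10.38, with 7 of 8 higher. Cspg4, among the higher markers, and Myh11, the lower marker, lay inside the background range. Capsule means were 8.78 to 9.35 and 9.42 to 9.70, with 7 of 7 higher and Gli1, Wt1 and Rspo1 inside the background range. Above that range, Tcf21 and Ptch1 differed by 1.46 and 1.07, and Rspo3 and Nr2f2 by 0.26 and 0.19 with overlapping groups. All were named after their values were seen. Macrophage means were 9.26 to 9.37 and 9.38 to 9.88, with 6 of 6 higher. Of these, all named after their values were seen, Cd163 (change 0.91) and Adgre1 (0.15) lay partly inside the background range. Csf1r differed by 0.52, while C1qa, C1qb and Mrc1 differed by 0.08, 0.09 and 0.26 with overlapping groups. Mutant 3 lay below every control in Adgre1, C1qa and C1qb. Kidney means were 5.32 to 5.36 and 5.52 to 5.58, with 6 of 9 higher and 7 inside the background range. Of the other kidney markers, the water channel Aqp1, which capillary endothelium also expresses, had a log2 change of 1.48 and the podocyte gene Nphs1 one of 0.06, both named after their values were seen. Means of the remaining lists overlapped between the groups. The fibroblast mean differed by 0.72 (7 of 7 higher), the adipocyte mean by 0.98 (10 of 10 higher), the cortex mean by -0.07 (2 of 9 higher) and the chromaffin mean by -0.35 (0 of 7 higher). The part of these cell types in the Crim1 or Bmp2 values was not tested.

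**Figure D3:**
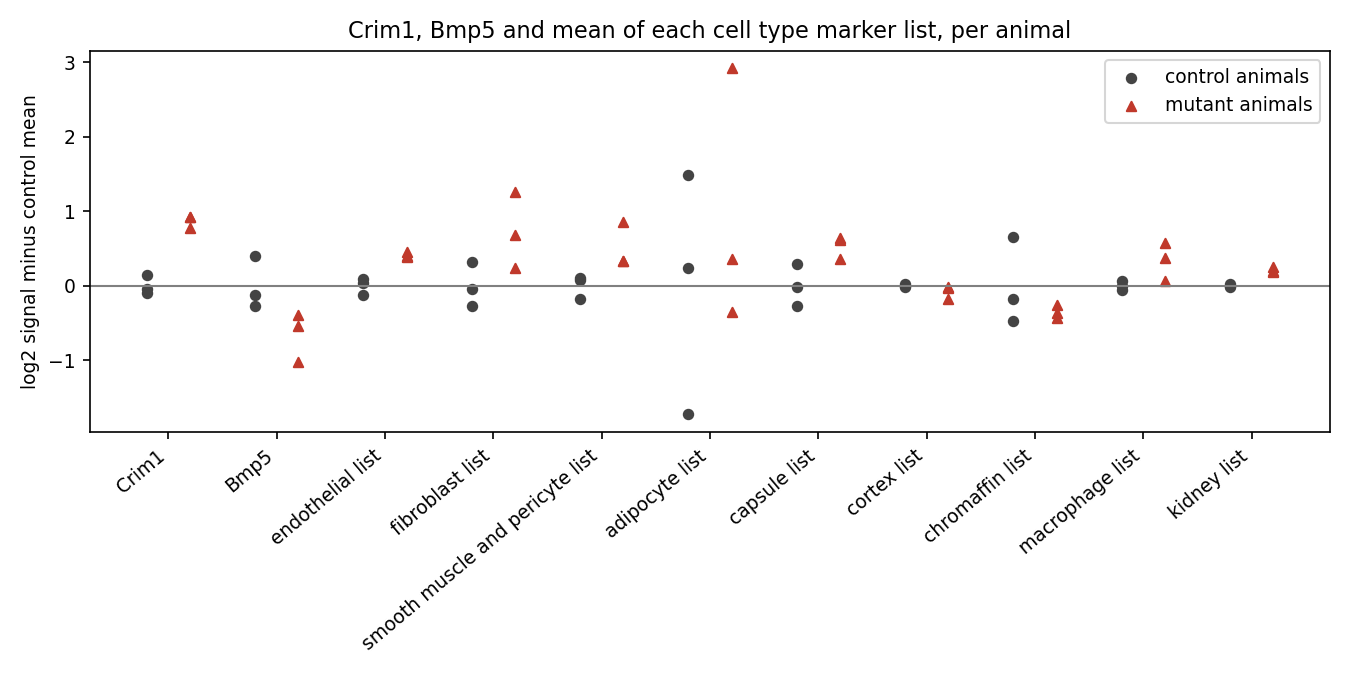
Log2 signal minus the control mean (vertical axis) in each animal for Crim1, Bmp5 and the mean of each marker list, with circles for controls and triangles for mutants. Crim1 and the endothelial, smooth muscle, capsule, macrophage and kidney lists have all 3 mutants above all 3 controls, and the adipocyte list spreads widest, with means from 7.72 to 12.37.

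The genes whose centred signals followed Crim1 most closely over the 6 animals, among 9198 probe sets above background, were Cd34, Cers6 and Nlgn3. Their root mean square differences from the Crim1 profile were 0.061, 0.079 and 0.083 log2 units. Cd34, a surface glycoprotein of endothelial and progenitor cells, measured 11.69, 11.56 and 11.66 in controls and 12.49, 12.49 and 12.29 in mutants. Cers6 makes ceramides and Nlgn3 is a synaptic adhesion protein, and their changes of 0.91 and 0.89 were close to that of Crim1. For Bmp2 the closest were Sox5, F11r and Ptp4a3 (differences of 0.048 to 0.067), and for Bmp5 Sh3gl2, Hoxb5 and Mpzl3 (0.118 to 0.125). These likenesses rest on 6 arrays that fall into 2 groups and are a description only.

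Beyond these members, 54 other genes of the pathway were listed by role, and 52 were measured. Limma called 0 of the 52 (0.0721 percent of all probe sets), while 4 were higher and 3 lower at an unadjusted p under 0.05, against 5.42 and 4.96 percent of all probe sets. Groups did not overlap for 15, with mutants above in 10 and below in 5, beside 8.00 and 8.36 percent of all probe sets. The median change was 0.10, and 27 of the 52 lay inside the background range in all 6 animals.

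Of the 10 further ligands, 9 lay inside the background range and Bmp7 did not. Bmp7, which belongs to the subgroup of Bmp5 and is needed for kidney and eye development, measured 11.80, 11.70 and 11.91 in controls and 10.96, 10.54 and 11.15 in mutants. Every mutant was below every control by at least 0.54, and mutant 2 was the lowest animal for both Bmp7 and Bmp5. The log2 change of Bmp7 was -0.92 (SE 0.19, 95% interval -1.35 to -0.49), and it did not pass over all probe sets (limma adjusted p = 0.147). Bmp10 and Gdf6, next by p, stayed inside the background range, with changes of 0.21 and -0.14.

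Among 10 further receptors and coreceptors 9 were higher, with a median change of 0.26 and 0 called. Of the 10, 3 lay inside the background range and 1 partly inside it. Endoglin (Eng), a coreceptor of vascular endothelium that binds BMP9, measured 14.74, 14.44 and 14.38 in controls and 14.83, 15.00 and 14.95 in mutants, a change of 0.41 (SE 0.16, limma adjusted p = 0.423). Its groups were separated by 0.10, and the endothelial list given above was higher in the same animals. The part of endothelial cells in the Eng values was not tested. Rgmb, a coreceptor also called DRAGON, was the one lower gene of the 10, from 8.36, 8.23 and 8.18 to 8.10, 7.85 and 7.65 (change -0.39, SE 0.16, limma adjusted p = 0.466). Bambi, a pseudoreceptor without a kinase domain, had a change of 0.38 inside the background range.

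The SMADs had changes from -0.37 to 0.33, and 0 of 6 were called. Smad4, the common partner, measured 12.47, 12.38 and 12.37 in controls and 12.51, 12.88 and 12.84 in mutants (change 0.33, SE 0.16, limma adjusted p = 0.514). Smad1 separated the groups by 0.02 (change 0.19, SE 0.14), Smad9 overlapped (-0.37, SE 0.25), and the inhibitory Smad6 and Smad7, named after their values were seen, lay inside the background range.

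Fstl3 had the largest difference of all 52 genes. It encodes a secreted follistatin-like protein that binds activins and, more weakly, BMPs. It measured 10.60, 10.03 and 10.29 in control glands and 11.53, 11.53 and 11.82 in mutant glands, with the groups 0.94 apart. The log2 change was 1.32 (SE 0.19, 95% interval 0.89 to 1.75), or 2.50-fold, with a limma adjusted p = 0.0545 that missed the threshold, and Fstl3 passed it with quantile normalization. Twsg1, which forms complexes of BMP with chordin, was higher by a smaller and tight margin, from 12.91, 12.95 and 13.06 to 13.26, 13.37 and 13.35 (change 0.36, SE 0.14, limma adjusted p = 0.430). Chrdl1, a chordin-like antagonist, had a change of 0.53 (SE 0.19, limma adjusted p = 0.390) with all signals inside the background range. Among the 17 antagonists and proteases measured, 11 were higher and 6 lower, but 9 lay inside the background range and 1 partly inside it.

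Genes that BMP signalling is known to switch on did not all differ in one direction. Of 9 measured targets 5 were higher and 4 lower, with 0 called and a median change of 0.13. Msx1, a homeobox gene of limb and face, had the smallest p, with a change of -0.54 (SE 0.14, limma adjusted p = 0.259) and all signals inside the background range, as had Id4 (0.28) and Msx2 (-0.28). The widely used readouts Id1, Id2 and Id3, named after their values were seen, were above background. Id1 measured 13.04, 12.89 and 13.05 in controls and 13.06, 13.18 and 13.43 in mutants (change 0.23, SE 0.16, limma adjusted p = 0.674). Control 3 and mutant 1 differed by only 0.01 in Id1, and Id3 overlapped with a change of 0.39 (SE 0.26). Id2 had a change in the other direction (-0.23, SE 0.17) and overlapped.

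**Figure D4:**
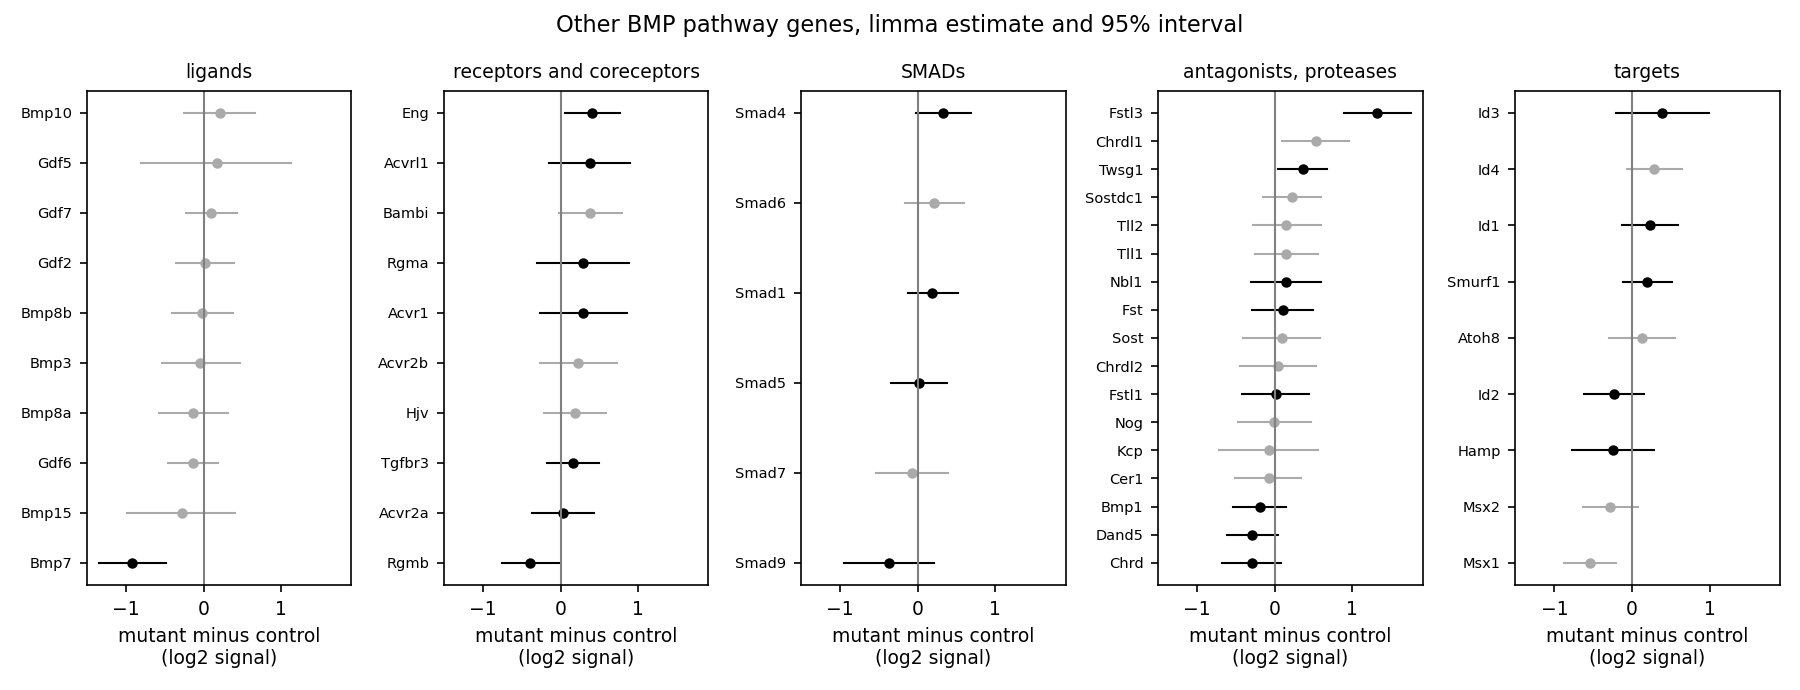
Mutant minus control in log2 signal (horizontal axis) with 95% limma interval for 52 other BMP pathway genes, by role, with genes inside the background range in all 6 animals in grey. Fstl3 (1.32) and Bmp7 (-0.92) lie farthest from 0 among genes above background, and most other intervals span 0.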

How the data were processed

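The log2 signals were deposited by the authors as 1 value per probe set and animal, made with Transcriptome Analysis Console 4.0 per the submitters' processing notes. How background, summarisation and normalization were done, and the genome build, is not stated in what was used here. If arrays were made equal in distribution, a change common to most genes could not be seen. Left out were 6640 control probe sets (5222 intron, 1324 exon, 23 background and 71 spike), leaving 22206. Of these, 19572 had 1 gene symbol in the platform's annotation, 0 several and 2634 none. A gene with several probe sets was represented by the one of highest mean. Limma 3.58.1 in R 4.3.3 (lmFit, eBayes) compared the groups over 6 arrays without covariates. Tests were two-sided, with Benjamini-Hochberg adjustment over all 22206 and a threshold of 0.05. The procedure was tested on simulated data. SEs and 95% intervals are the fit's, and precision is limited by 3 animals per group.

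The members and lists were chosen with earlier results of these data known. Named were all members, up to 3 genes of smallest p per role of the pathway list, the 3 closest profiles per separated member above background, and Stk4. Other genes are marked as named after their values were seen, apart from markers inside the background range. Alternatives were other scalings, filters, variance models, covariates, a threshold of 0.1, the replicate number as a block and each animal left out. The labels give no batches.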

Additional observations from a re-analysis of the deposited data

How the results depend on the processing

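Crim1, Bmp2, Bmp4, Bmp5, Bmpr1a and Bmper kept their direction under every alternative run for them. The filters, variance model, replicate block, averaging and threshold could not change these estimates, so they do not test direction. Leaving out 1 animal could not turn the sign of Crim1, Bmp2 or Bmp5 either, since their groups do not overlap. Leaving out 1 animal moved Bmp4 to 0.112 (without mutant 2), and Bmper to 0.175 (without control 2) or 0.650 (without control 3). Crim1 lay between 0.82 and 0.94, with limma adjusted p from 0.0111 to 0.283. Median changes stayed between 0.129 and 0.207 for the members and between 0.065 and 0.153 for the pathway list. The count of members called was 1 (Crim1) with probe sets above the median level (7 members tested), with trend and robust eBayes and at an adjusted p under 0.1, and 0 in the remaining alternatives. Pathway genes called numbered 1 (Fstl3) with quantile normalization, with probe sets above the median level, with probe sets of 1 gene symbol, with averaged probe sets per gene and at an adjusted p under 0.1, and 2 (Bmp7 and Fstl3) with trend and robust eBayes. Of all probe sets, 38 were called with quantile normalization (27 higher), 32 with a common median (20 higher), 92 above the median level, 41 with 1 gene symbol, 41 with averaged probe sets, 175 with trend and robust eBayes, 48 with array weights, 8 with the intron covariate, 2 with the adipocyte covariate and 108 at an adjusted p under 0.1. Leaving out 1 animal gave from 1 to 15. With the replicate block 1 probe set was called and 0 members. Deviations of same-numbered animals correlated at -0.09, 0.08 and -0.07, and those of unlike-numbered animals at -0.10 to 0.16. With 3 animals per group, these values cannot tell whether the numbers mark anything that animals share. Leaving out 1 animal turned signs for Bmp6 (-0.002 without control 3, up to 0.348), Bmpr1b (-0.020 without mutant 3, up to 0.142), Bmpr2 (-0.052 without mutant 1, up to 0.146) and Grem1 (0.012 without control 1, down to -0.091). With the adipocyte covariate Grem1 was at 0.011. Causes of these shifts were not tested. Genes inside the background range, 3 members among them, allow no statement about low expression.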

Other observations

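Hamp, the iron hormone hepcidin and a textbook target of BMP6 signalling in liver, gave bright signals in all adrenal glands, a gene singled out after its values were seen. It measured 15.78, 16.04 and 15.14 in controls and 15.31, 15.51 and 15.42 in mutants. The groups overlapped, and the means differed by -0.24 (SE 0.23; limma adjusted p = 0.779). Which transcripts the Hamp probes detect was not tested. Chrd, the secreted antagonist chordin, and Dand5, a cerberus-family antagonist, also singled out after their values were seen, were the lower members of the antagonist list whose groups did not overlap, at changes of -0.30 (SE 0.17) and -0.29 (SE 0.14), with limma adjusted p of 0.593 and 0.539.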
